A study of Rattus norvegicus with 12 samples.

Results

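The response to endothelin-1 with BET proteins blocked was read from 4 of the 12 RNA-seq libraries of a study on cultured neonatal rat cardiomyocytes. The libraries were chosen by their titles: 2 were from cells given 100 nM endothelin-1 (ET-1) and 1 µM JQ1, and 2 were from cells given the agonist's vehicle, acetic acid, and 1 µM JQ1. The same agonist comparison without JQ1 (ET-1 with DMSO against acetic acid with DMSO, 2 libraries each) was used to ask where the responses differed, and 2 libraries of cells given 10 µM phenylephrine (PE) and JQ1 were set beside them. All cells came from Sprague-Dawley rats of 1 to 3 days, had been kept with 10 µM cytosine arabinoside, which kills dividing cells, until 24 h before treatment, and were treated for 24 h. They were primary cultures and the labels do not say which hearts went into which library, so the p-values measure the spread between these libraries. The series title asks how P-TEFb complexes are activated during cardiomyocyte hypertrophy after different G protein-coupled receptors are engaged.

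ET-1 is a peptide that binds the receptor encoded by Ednra on cardiomyocytes, where Gq signalling through phospholipase C and protein kinase C, calcium and the ERK kinases drives hypertrophic growth. BET proteins bind acetylated histones and help to bring P-TEFb, the kinase made of CDK9 and a cyclin T, to promoters, where it releases paused RNA polymerase II. JQ1 occupies the bromodomains of BET proteins and displaces them from chromatin.

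Every value below is a gene's level in FPKM (fragments per kilobase of transcript, scaled to sequencing depth), summed over its transcripts and rescaled per library, and every difference is ET-1 minus vehicle on the scale of log2(FPKM + 0.5), given with its standard error. A gene is called when its Benjamini-Hochberg adjusted p from limma, with the replicate number as a block, is under 0.05. The deposited coverage amounted to between 2.34 and 2.97 Gb of transcript bases per library. Cardiomyocyte markers were abundant, with a summed level of 17960 and 19350 FPKM in the ET-1 libraries under JQ1 and 15710 and 25140 FPKM in the vehicle libraries under JQ1. The fibroblast markers summed to 990.3 and 363.3 FPKM with ET-1 under JQ1 and to 1174 and 504.7 FPKM with vehicle under JQ1, with the higher sum in replicate 1 in both groups. In such bulk samples fewer cells of a type and less RNA per cell cannot be told apart. The macrophage markers summed to 10.51 and 3.814 FPKM with ET-1 under JQ1, against 13.27 and 5.304 FPKM with vehicle under JQ1.

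With JQ1 present, ET-1 raised 679 genes and lowered 922 of the 13793 tested, which is 4.92% and 6.68% of them, and 1601 or 11.6% together. Of these, 110 were at least 2-fold higher and 133 at least 2-fold lower on that scale. All 1601 had the same sign in both replicate pairs, which selecting genes called in a paired fit favours. The counts rested on the pairing, on the libraries that shared the fit and on the second pair of libraries. When the blocked fit held only the 4 libraries compared, 12 genes were higher and 3 lower. Without the replicate block 44 genes were higher and 143 lower (1.36% of genes), and all 187 were among the 1601. Leaving out the ET-1 library of replicate 2 left 81 higher and 93 lower, and leaving out the vehicle library of replicate 2 left 57 and 53. Leaving out the vehicle library of replicate 1 left 410 and 637, and without the ET-1 library of replicate 1 the counts were 834 and 1030. In all 4 of these fits, 47 of the 679 and 47 of the 922 were called. With the values as deposited, not rescaled, 468 genes were higher and 1461 lower, and the median of all genes was −0.10 rather than −0.01.

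Most of the response without JQ1 kept its direction when JQ1 was present. Without JQ1, ET-1 raised 1226 genes and lowered 1311, which is 8.89% and 9.5% of those tested and 18.4% together. Under JQ1, 1157 of those 1226 genes (94.4%) were also above vehicle, with a median difference of 0.30 under JQ1 and 0.51 without it. Of the 1311 lowered without JQ1, 1243 (94.8%) were below vehicle under JQ1, with medians of −0.29 under JQ1 and −0.49 without it. The genes were selected on the values without JQ1, which favours larger differences there. Read the other way, the 679 genes raised under JQ1 had a median of 0.56 under JQ1 and 0.52 without it, and the 922 lowered under JQ1 had medians of −0.61 and −0.40. Genes raised in both settings numbered 457, which is 67.3% of those raised under JQ1 and 37.3% of those raised without it. Genes lowered in both numbered 464, or 50.3% and 35.4%. The 2 comparisons share no library, but both come from 1 fit with a shared estimate of the spread of each gene. A gene with a small spread is thus favoured for a call in both, and the 2 sets of calls are not independent. Their differences across all genes tested correlated with r = 0.64, a description over genes, which are not independent. When the block was left out, 2.87% of genes were called without JQ1 and 65 were called the same way in both.

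**Figure D1:**
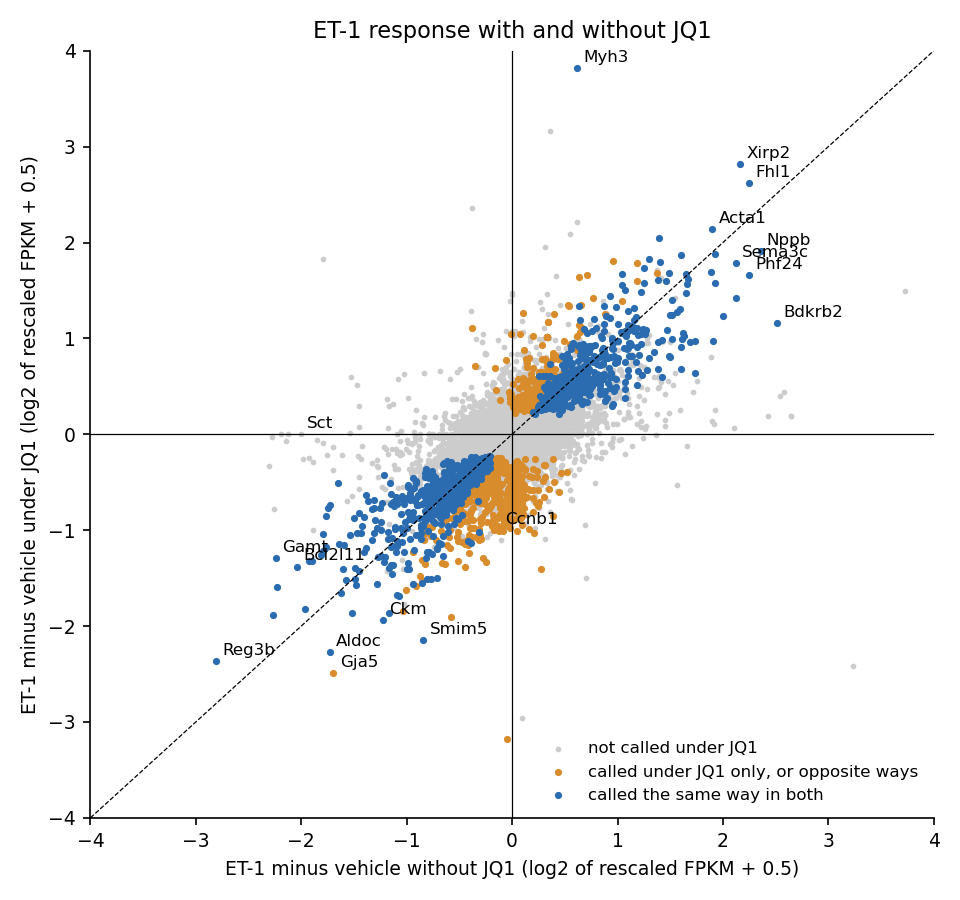
Difference between ET-1 and vehicle under JQ1 (vertical axis) against the difference without JQ1 (horizontal axis), both in log2(FPKM + 0.5), 1 point per gene of the 13793 tested; 5 genes lie outside the axes and the dashed line marks equal responses. Blue points are the 921 genes called the same way in both settings; Myh3, at 3.82 under JQ1 and 0.61 without it, lies far above the dashed line.

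Rankings of rises and falls here leave out placeholder names, ribosomal and histone genes and small RNAs. Among the called genes so ranked, the largest rise was in Myh3, the embryonic myosin heavy chain (rn6 chr10:53621375-53645194). Its level was 6.02 and 12.3 FPKM with ET-1 under JQ1, against 0.0927 and 0.209 FPKM with vehicle under JQ1. Without JQ1 it was 7.35 and 10.2 FPKM with ET-1 and 4.78 and 6.28 FPKM with vehicle. So the ET-1 libraries stood at a similar level in both settings, and the vehicle libraries under JQ1 stood far below the other groups. Means under JQ1 were 9.18 ± 4.47 FPKM with ET-1 and 0.151 ± 0.0822 FPKM with vehicle (SD, n = 2 each), a ratio of 60.8, and the difference on the log2 scale was 3.82 ± 0.17 (adjusted p = 0.000247; 0.0131 without the block). PE gave 4.57 and 8.21 FPKM under JQ1, a difference of 3.36 ± 0.17 from the same vehicle libraries. The response of Myh3 to ET-1 was larger under JQ1 than without it by 3.20 ± 0.24 (adjusted p = 0.0135), the most positive called difference between the responses. That call was not made without the block (adjusted p = 0.288) or in the fit of only the 8 libraries of both comparisons (0.166). Of the 8 fits that left out a library, 3 made it, those without the ET-1 library of replicate 1 under JQ1, the ET-1 library of replicate 2 under JQ1 and the vehicle library of replicate 2 without JQ1 (adjusted p between 0.00366 and 0.111 over the 8).

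Genes of cardiac hypertrophy and the fetal programme were among the largest rises. Of 18 tested, 11 were higher and 4 were lower, 83.3% called against 11.6% of all genes. The median difference was 0.89 under JQ1 and 0.85 without it, against −0.01 and −0.02 over all genes. Xirp2, which encodes an actin-binding protein of the intercalated disc (rn6 chr3:53563194-53658132), was at 21.9 and 88.0 FPKM with ET-1 under JQ1 and 2.92 and 11.1 FPKM with vehicle under JQ1. The groups did not overlap, although the level of replicate 2 was above that of replicate 1 in both. Its difference was 2.82 ± 0.31 (adjusted p = 0.00395), and 2.17 ± 0.31 without JQ1. Fhl1, a LIM-domain protein of the sarcomere (rn6 chrX:159112880-159172524), had 1510 and 4613 FPKM with ET-1 under JQ1, against 263.1 and 703.1 FPKM with vehicle under JQ1, a difference of 2.62 ± 0.20 (adjusted p = 0.00184). Acta1, skeletal alpha-actin (rn6 chr19:56674074-56677084), had 2332 and 3967 FPKM with ET-1 under JQ1 and 465.7 and 1026 FPKM with vehicle under JQ1, a difference of 2.14 ± 0.34 (adjusted p = 0.0108). The natriuretic peptide gene Nppb (rn6 chr5:164796185-164797531) had 1541 and 3961 FPKM with ET-1 under JQ1 and 507.8 and 847.5 FPKM with vehicle under JQ1, a difference of 1.91 ± 0.19 under JQ1 and 2.36 ± 0.19 without it. Nppa, the atrial natriuretic peptide, was at 7067 and 13780 FPKM with ET-1 under JQ1 and 3739 and 6016 FPKM with vehicle under JQ1, a difference of 1.06 ± 0.14 (adjusted p = 0.00615). Csrp3, the muscle LIM protein, rose by 2.04 ± 0.20, and Ankrd1, a stretch-responsive ankyrin repeat protein, rose by 1.48 ± 0.13. The beta-myosin gene Myh7 was called higher at 0.72 ± 0.15 under JQ1, and the alpha-myosin gene Myh6 showed 0.06 ± 0.19 (adjusted p = 0.865). The 4 lowered members were Hopx, a homeodomain-like cardiac regulator, at −1.68, the troponin I genes Tnni1 at −1.242 and Tnni3 at −1.004, and Myl7, the atrial myosin light chain, at −0.53. Of the 15 called, 10 were called the same way without JQ1. Without the block 1 of the 15 was called. Without the vehicle library of replicate 1, the ET-1 library of replicate 1, the vehicle library of replicate 2 and the ET-1 library of replicate 2 the counts were 9, 13, 7 and 6. None of the 18 had an adjusted p under 0.236 for the difference between the responses.

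The promoters of Fhl1 and Acta1 are shown because these were the highest-ranking hypertrophy genes with a CArG box, the motif bound by serum response factor (SRF), in capitals. Each window covers 250 bases before to 50 bases after the start of the gene in RefSeq (GRCr8, on the strand of the gene), Fhl1 at chrX:139638246-139638545 (plus strand) and Acta1 at chr19:68784145-68784444 (minus strand).
Fhl1: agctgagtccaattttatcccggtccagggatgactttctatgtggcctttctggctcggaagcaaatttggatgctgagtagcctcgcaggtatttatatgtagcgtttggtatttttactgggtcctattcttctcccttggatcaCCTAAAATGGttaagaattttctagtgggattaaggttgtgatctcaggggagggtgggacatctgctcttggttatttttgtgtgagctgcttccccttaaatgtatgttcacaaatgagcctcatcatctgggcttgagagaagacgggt
Acta1: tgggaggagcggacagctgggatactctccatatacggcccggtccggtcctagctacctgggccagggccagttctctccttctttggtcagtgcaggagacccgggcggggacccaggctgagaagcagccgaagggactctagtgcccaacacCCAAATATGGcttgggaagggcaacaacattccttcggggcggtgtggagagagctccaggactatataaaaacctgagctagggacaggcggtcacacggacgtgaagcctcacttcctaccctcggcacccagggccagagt
A CArG box on either strand was found in 3 of the 16 promoters held for these genes (18.8%). It was found in 117 of the 8824 promoters of all genes tested (1.33%). Among all genes called higher under JQ1 it was found in 8 of 468 promoters (1.71%), close to that share. A match is a sequence description and does not show that the factor bound there.

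**Figure D2:**
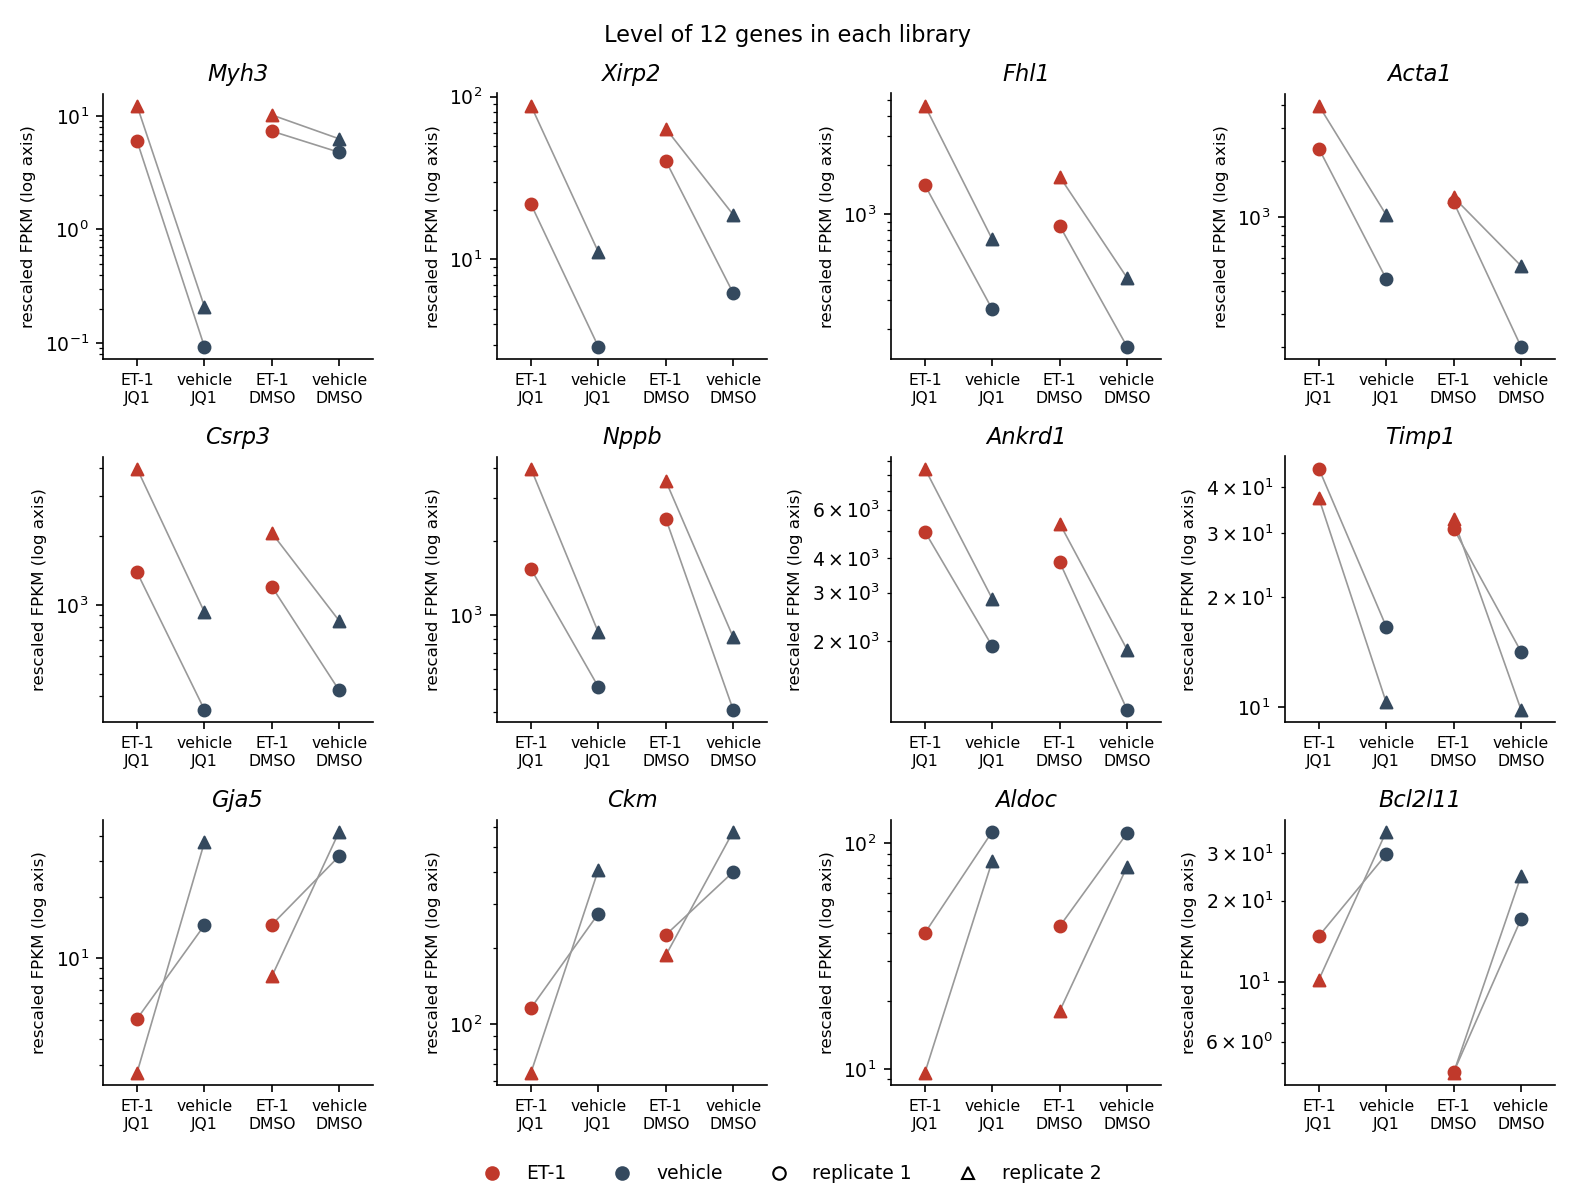
Rescaled FPKM of 12 genes in each library, on log axes; red is ET-1, dark blue is vehicle, circles are replicate 1, triangles are replicate 2, and a line joins the libraries of a replicate pair. In all 12 panels both lines under JQ1 point the same way as both lines without JQ1; Myh3 shows the low vehicle libraries under JQ1, at 0.0927 and 0.209 FPKM.

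Genes outside that list also led the rise. Pxdc1 had 11.6 and 16.1 FPKM with ET-1 under JQ1 and 3.98 and 2.84 FPKM with vehicle under JQ1, a difference of 1.88 ± 0.23 (adjusted p = 0.00507). Tnfrsf12a, the receptor of the cytokine TWEAK, had 166.3 and 387 FPKM with ET-1 under JQ1, against 59.1 and 102.8 FPKM with vehicle under JQ1, a difference of 1.70 ± 0.14. Both were raised without JQ1 as well, by 1.92 and 1.88. Sema3c, a secreted semaphorin, rose by 1.79 ± 0.34, and Thbs1, the matricellular thrombospondin-1, rose by 1.80 ± 0.35. Lmcd1, a LIM protein that acts with calcineurin, was raised by 1.80 ± 0.31 under JQ1 and stood at 0.96 without it (adjusted p = 0.0652). Cavin4, a caveolar coat protein of muscle, rose by 1.79 ± 0.43 and had its vehicle level at 4.08 FPKM in replicate 1 and 25.2 FPKM in replicate 2, so the groups overlapped. Of the 15 genes with the largest rises, 8 were called in all 4 fits that left out a library: Myh3, Xirp2, Fhl1, Csrp3, Nppb, Pxdc1, Dusp4 and Tnfrsf12a. Only Myh3 and Pxdc1 were called without the block.

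Of 17 feedback inhibitors and targets of the ERK pathway tested, 8 were higher and none was lower, 47.1% called against 11.6% of all genes. Without JQ1, 6 of the 8 were also raised. Dusp4, a nuclear phosphatase that inactivates ERK, had 23.6 and 15.2 FPKM with ET-1 under JQ1, against 6.80 and 3.37 FPKM with vehicle under JQ1, a difference of 1.87 ± 0.20 (adjusted p = 0.0033). Dusp6, the cytoplasmic ERK phosphatase, rose by 1.01 ± 0.15, the inhibitor Spry4 by 0.89 ± 0.16 and the ETS factor Etv5 by 0.91 ± 0.17. The list's median was 0.68 under JQ1 and 0.57 without it. Without the block, without the vehicle library of replicate 2 and without the ET-1 library of replicate 2, 1 member was called in each case. Of 21 immediate early genes 9 were higher (42.9% called), none was lower and 8 of the 9 were also raised without JQ1. These included the small Maf factors Maff at 0.91 ± 0.18 and Mafk at 0.83 ± 0.11, and the stress-induced factor Atf3 at 0.90 ± 0.18. No immediate early gene was called without the block or without the vehicle library of replicate 2; 1 was called without the ET-1 library of replicate 2, and 5 without the vehicle library of replicate 1. Myc, a proto-oncogene whose transcription is known to depend on BET proteins in many cells, had 3.75 and 13.8 FPKM with ET-1 under JQ1 and 2.66 and 3.23 FPKM with vehicle under JQ1. The value of replicate 2 stood alone, and the difference of 1.18 ± 0.41 was not called (adjusted p = 0.0988).

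Of 24 targets of SRF and of the YAP and TAZ coactivators tested, 8 were higher and none was lower under JQ1, and 11 were higher and 1 was lower without it. The 8 are 33.3% of the list, against 4.92% of all genes called higher under JQ1. All 8 were among those raised without JQ1, and the median was 0.31 under JQ1 and 0.30 without it. Ctgf and Cyr61, secreted matricellular proteins, rose by 1.73 ± 0.23 and 1.56 ± 0.25. Ctgf was at 238.1 and 484.3 FPKM with ET-1 under JQ1, against 106.5 and 97.5 FPKM with vehicle under JQ1. Cnn1, the smooth muscle calponin, had 26.7 and 59.8 FPKM with ET-1 under JQ1 and 10.6 and 14.1 FPKM with vehicle under JQ1, a difference of 1.67 ± 0.17 (adjusted p = 0.00322). Zyx, the focal adhesion protein zyxin, rose by 0.88 ± 0.12. The smooth muscle and pericyte markers, which include Cnn1 and Des, summed to 2226 and 2651 FPKM with ET-1 under JQ1 and to 1432 and 1367 FPKM with vehicle under JQ1. Of these sums Des, also counted below as a sarcomere gene, held 1421 and 2055 FPKM with ET-1 and 687.8 and 975.4 FPKM with vehicle. The median difference of the 9 markers tested was 0.05. Of the 9, 2 were higher (22.2%, against 4.92% of all genes), none was lower and none was at 0. The part of these markers in the result was not tested. A CArG box was found in 4 of 16 promoters of this list (25.0%), against 1.33% of all promoters. The letters CATTCC of the MCAT element, bound by TEAD factors, were found in 8 of 16 (50%), against 10.9% of all promoters. Among all genes called higher under JQ1 the 2 shares were 1.71% and 13.7%. The list was made of targets of these factors, so its shares describe the list and not the response. No SRF or YAP target was called without the block, 1 without the vehicle library of replicate 2 and 3 without the ET-1 library of replicate 2.

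Of 23 secreted growth factors 5 were higher (21.7%, against 4.92% of all genes) and none was lower, and all 5 were raised without JQ1 too. They were Tgfb2 at 1.58 ± 0.26, the EGF receptor ligands Hbegf at 1.239 ± 0.14 and Areg at 0.97 ± 0.14, the neurotrophin Bdnf at 0.86 ± 0.19, and Bmp10, a cardiac bone morphogenetic protein, at 0.79. Hbegf had 19.7 and 39.4 FPKM with ET-1 under JQ1, against 10.0 and 13.3 FPKM with vehicle under JQ1. No growth factor was called without the block, 1 without the vehicle library of replicate 2 and 2 without the ET-1 library of replicate 2. Of 30 matrix, protease and crosslinking genes 7 were higher and 2 were lower, 30.0% called against 11.6% of all genes. Timp1, an inhibitor of metalloproteinases, had 45.1 and 37.4 FPKM with ET-1 under JQ1 and 16.6 and 10.3 FPKM with vehicle under JQ1, a difference of 1.61 ± 0.16 (adjusted p = 0.00306; 0.0354 without the block). The fibrillar collagen gene Col3a1 fell by 0.61 ± 0.10. Without the block 1 matrix gene was called, without the vehicle library of replicate 2 it was 1 and without the ET-1 library of replicate 2 it was 2. Fibroblast markers moved beside these genes: 2 of 11 (Fbln1 and Col3a1) were lower, 18.2% against 6.68% of all genes. None of these markers was higher, none was at 0, and their part in the result was not tested.

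Of 15 genes of the Bcl-2 family, which governs cell death, 3 were higher and 2 were lower, 33.3% called against 11.6% of all genes. All 5 were called the same way without JQ1. Bcl2l11, which encodes the cell-death activator BIM (rn6 chr3:120726906-120764192), had 14.8 and 10.2 FPKM with ET-1 under JQ1, against 29.7 and 36.1 FPKM with vehicle under JQ1. Without JQ1 it had 4.62 and 4.60 FPKM with ET-1 and 17.1 and 24.7 FPKM with vehicle. ET-1 lowered it by 1.38 ± 0.22 under JQ1 (adjusted p = 0.0109; 0.0354 without the block), with levels under JQ1 above those without it in both groups. The difference between the responses was 0.66 ± 0.32 (adjusted p = 0.534). The death inhibitors Bcl2 and Bcl2l1 rose by 0.95 ± 0.10 and 0.72 ± 0.07, and Bok, a pro-apoptotic member, rose by 1.05 ± 0.20. Bcl2 had 15.9 and 16.6 FPKM with ET-1 under JQ1 and 8.57 and 7.80 FPKM with vehicle under JQ1. Bmf, a second activator, fell by 0.50. Without the block 3 of the 5 were called, and without the vehicle and the ET-1 library of replicate 2 the counts were 3 and 2.

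Of 23 heat shock and endoplasmic reticulum chaperones 5 were higher and none was lower, 21.7% called against 11.6% of all genes. Cryab, alpha-B crystallin, had 1254 and 2497 FPKM with ET-1 under JQ1 and 567.3 and 858.4 FPKM with vehicle under JQ1, a difference of 1.34 ± 0.16 (adjusted p = 0.00451). Hspb8 and Hspb1, small heat shock proteins, rose by 0.77 ± 0.16 and 0.71 ± 0.11, and Sdf2l1, a protein of the endoplasmic reticulum, rose by 0.55 ± 0.09. None was called without the block or without the vehicle library of replicate 2, and 1 without the ET-1 library of replicate 2. Among D cyclins, G1 kinases and CDK inhibitors, 3 of 14 were higher and 3 were lower, 42.9% called. Ccnd2 and Ccnd1, the cyclins D2 and D1, rose by 0.94 ± 0.20 and 0.55 ± 0.14, and the kinase gene Cdk6 rose by 0.44. The inhibitor genes Cdkn1c, Cdkn1b and Cdkn2c fell by 1.13 ± 0.15, 0.50 ± 0.09 and 0.50. None of the 6 was called without the block or without either replicate 2 library, and 1 and 3 were called without the vehicle and the ET-1 library of replicate 1.

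Of 28 genes of fatty acid oxidation and lipid storage, 8 were lower and 1 was higher under JQ1, 32.1% called against 11.6% of all genes. Without JQ1 10 were lower and none was higher. The lists of lowered members shared 7 genes, and the median was −0.41 under JQ1 and −0.38 without it. Ech1, an auxiliary enzyme of beta-oxidation, had 24.5 and 15.6 FPKM with ET-1 under JQ1, against 41.8 and 64.8 FPKM with vehicle under JQ1, a difference of −1.39 ± 0.30 (adjusted p = 0.026). The oxidation enzymes Acaa2 and Hadh fell by 1.12 ± 0.22 and 1.11 ± 0.21, and Acsl1, which activates long-chain fatty acids, fell by 0.97 ± 0.19. A separate list of 15 PPAR, ERR and PGC-1 regulators was mixed, with 3 lower, 1 higher (Pprc1, at 0.44) and a median of −0.06. Of these the nuclear receptor genes Rxrg and Rxra, partners of PPARs, fell by 1.57 ± 0.22 and 1.03 ± 0.23. Rxrg was low, at 0.12 and 0.19 FPKM with ET-1 under JQ1 and 0.86 and 2.25 FPKM with vehicle under JQ1. Pnpla2, the triglyceride lipase of lipid droplets, was the fatty acid list's member that rose, at 0.41. The median of the fatty acid list was −0.19 in replicate pair 1 and −0.69 in pair 2. No member was called without the block, without the ET-1 library of replicate 2 or without the vehicle library of replicate 2.

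Among the genes ranked, with the same names left out, the largest falls under JQ1 were in genes of varied function. The first was Gja5, connexin 40 of atrial and conducting tissue (rn6 chr2:199162745-199184939), which had 5.04 and 2.74 FPKM with ET-1 under JQ1, against 14.5 and 37.1 FPKM with vehicle under JQ1, a difference of −2.49 ± 0.50 (adjusted p = 0.0216). Aldoc, aldolase C, had 40.0 and 9.61 FPKM with ET-1 under JQ1 and 112.8 and 83.7 FPKM with vehicle under JQ1, a difference of −2.27 ± 0.36. Ckm, muscle creatine kinase, had 116.0 and 64.5 FPKM with ET-1 under JQ1, against 273.5 and 407.4 FPKM with vehicle under JQ1, a difference of −1.94 ± 0.33 (adjusted p = 0.0125; 0.0389 without the block). In these 3 genes both ET-1 libraries lay below both vehicle libraries, and replicate 2 showed the larger drop. Reg3b, a secreted lectin, fell by 2.36 ± 0.22 and was listed at 0 in the ET-1 library of replicate 2. G0s2, an inhibitor of triglyceride lipase, fell by 1.90 ± 0.35 under JQ1 and stood at −0.58 without it (adjusted p = 0.269). Masp1, a protease of the lectin pathway of complement, fell by 1.66 ± 0.13 under JQ1 and by 1.62 ± 0.13 without it. Ntf3, neurotrophin 3, fell by 1.68 ± 0.22. Smim5, a small membrane protein, fell by 2.14 ± 0.18 and Gpr22, an orphan receptor of the heart, by 1.82 ± 0.20; both overlap another expressed gene, so their reads may be shared. Of the 15 genes with the largest falls, Reg3b, Smim5, Gpr22 and Masp1 were called in all 4 fits that left out a library. Smim5, Gpr22 and Masp1 were called without the block, as were Ckm, Hopx, Ntf3 and Efnb3, an ephrin ligand that fell by 1.85 ± 0.33.

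Of 28 genes of ion channels and calcium handling, 5 were lower and 1 was higher, 21.4% called against 11.6% of all genes. The potassium channel gene Kcnj3 had 2.61 and 5.01 FPKM with ET-1 under JQ1, against 6.18 and 15.7 FPKM with vehicle under JQ1, a difference of −1.33 ± 0.13 (adjusted p = 0.00252). Trdn, the triadin that anchors calsequestrin at the calcium release unit, fell by 1.15 ± 0.15, and the channel genes Kcnj11 and Kcnq1 fell by 0.94 ± 0.19 and 0.69 ± 0.13. Hcn4, the pacemaker channel gene, fell by 0.58, and Casq2, cardiac calsequestrin, rose by 0.48. The count was 1 without the block and 1 without either replicate 2 library, and 13 without the ET-1 library of replicate 1. Of 23 sarcomere genes 5 were higher and 3 were lower, 34.8% called. Des, the intermediate filament desmin, rose by 1.06 ± 0.10 and Tnnc1, cardiac troponin C, by 0.73 ± 0.13. The sarcomere count was 3 without the vehicle library of replicate 1 and 1 without either replicate 2 library, and none was called without the block. Of 24 glycolysis genes 3 were lower and 2 higher, 20.8% called. Pgam2, the muscle phosphoglycerate mutase, fell by 1.56 ± 0.24, Pfkm, the muscle phosphofructokinase, fell by 1.10 ± 0.25 and Pfkp, the platelet form, rose by 0.80 ± 0.11. None of the glycolysis genes was called without the block or without either replicate 2 library. Of 15 interferon response genes 5 were lower and none higher, 33.3% called against 11.6% of all genes. They were led by Irf7, a factor of type I interferon induction, at −1.32 ± 0.25. None was called without the block, and the calls rested on both replicate 2 libraries.

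The signalling pathway itself showed calls at its receptor. Ednra was at 6.43 and 2.698 FPKM with ET-1 under JQ1, against 12.8 and 10.1 FPKM with vehicle under JQ1, a fall of 1.33 ± 0.35 (adjusted p = 0.0472). Without JQ1 it was 20.01 and 27.9 FPKM with ET-1 and 36.7 and 21.4 FPKM with vehicle, where the groups overlapped. Ece1, the enzyme that matures endothelins, fell by 0.88 ± 0.22, and Edn1, the gene of the peptide, showed 0.12 ± 0.21 (adjusted p = 0.739). Ednrb, the other receptor gene, was under 0.3 FPKM in all 4 libraries. The kinin receptor gene Bdkrb2 and the protease-activated receptor gene F2rl1 rose by 1.16 ± 0.25 and 0.97 ± 0.17, and the alpha-1 adrenergic receptor gene Adra1b fell by 0.70 ± 0.18. None of these calls was made without the block or without either replicate 2 library. Of 23 genes of P-TEFb, the 7SK particle and the BET family, 1 was called: Nelfcd, a subunit of the pausing factor NELF, fell by 0.45 ± 0.10 (adjusted p = 0.0331; 0.0902 without the block), and was not called without either replicate 2 library or the vehicle library of replicate 1. Hexim1, an inhibitor of P-TEFb, was at 98.2 and 90.3 FPKM with ET-1 under JQ1 and 107.2 and 109.8 FPKM with vehicle under JQ1, and at 20.3 and 16.98 FPKM with ET-1 and 23.6 and 27.6 FPKM with vehicle without JQ1. Brd2 likewise was at 63.0 and 60.8 FPKM with ET-1 under JQ1 and 56.2 and 56.4 FPKM with vehicle under JQ1, and between 14.5 and 17.7 FPKM without JQ1. The ET-1 differences of Hexim1, Brd2, Brd3 and Cdk9 under JQ1 lay between −0.20 and 0.14, and none was called. The 1 gene called under JQ1 is 4.35% of this list, against 11.6% of all genes. Without JQ1, 6 of the 23 were called lower, against 9.5% of all genes, and none higher. None was called lower in both settings. Hexim1 and Brd3 were called lower without JQ1, at −0.45 ± 0.12 and −0.39 ± 0.11 (limma adjusted p = 0.0425 and 0.0398). No member of the list was called for the difference between responses.

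**Figure D3:**
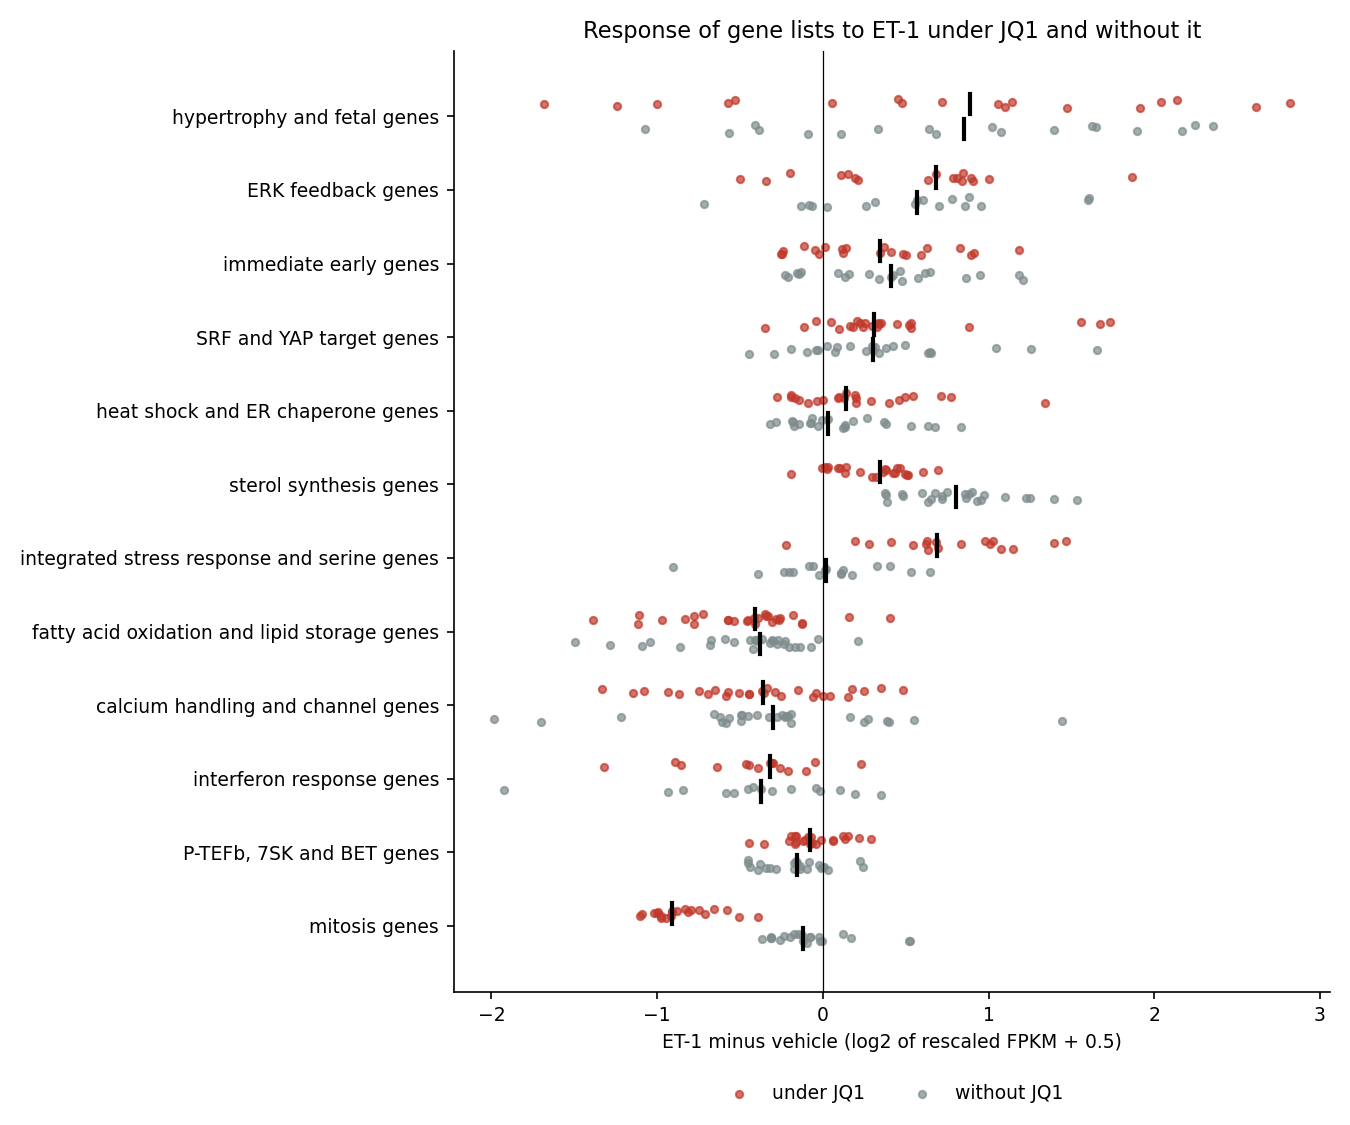
Difference between ET-1 and vehicle, in log2(FPKM + 0.5), of each tested member of 12 gene lists, under JQ1 (red, above) and without it (grey, below); black bars are medians. The mitosis list has its median at −0.91 under JQ1 and −0.12 without it, and the sterol list at 0.34 and 0.81.

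Genes of mitosis were lowered by ET-1 when JQ1 was present. Of 21 tested, 20 were lower and none was higher, with a median of −0.91 under JQ1, against 1 lower, 1 higher and a median of −0.12 without JQ1. The 20 are 95.2% of the list, against 6.68% of all genes called lower under JQ1. Without JQ1 9.5% of all genes were lower and 8.89% were higher. All 21 were below vehicle in both replicate pairs under JQ1, and the pair medians were −0.81 and −0.88. Ccnb1, cyclin B1 of the mitotic kinase (rn6 chr2:30783915-30791221), had 15.6 and 15.8 FPKM with ET-1 under JQ1, against 33.1 and 30.8 FPKM with vehicle under JQ1. Without JQ1 it had 33.7 and 34.4 FPKM with ET-1 and 36.0 and 38.4 FPKM with vehicle, so the ET-1 libraries under JQ1 stood apart from the other 3 groups. The difference was −1.003 ± 0.08 under JQ1 (adjusted p = 0.00184; 0.0084 without the block). Top2a, the topoisomerase of dividing cells, had 16.0 and 13.4 FPKM with ET-1 under JQ1 and 31.4 and 29.0 FPKM with vehicle under JQ1, a difference of −1.02 ± 0.09. Nusap1, a spindle protein, had 4.99 and 3.64 FPKM with ET-1 under JQ1, against 10.9 and 8.73 FPKM with vehicle under JQ1, a difference of −1.11 ± 0.13. Without JQ1, Top2a had 45.0 and 38.9 FPKM with ET-1 and 50.9 and 53.2 FPKM with vehicle. Nusap1 had 15.9 and 14.9 FPKM with ET-1 and 19.2 and 19.4 FPKM with vehicle without JQ1. Unlike Ccnb1, these genes thus had vehicle levels under JQ1 well below those without it. Under JQ1 Kif20a, a kinesin of cytokinesis, fell by 1.09 ± 0.10, and it overlaps another expressed gene. Ect2, at −0.51, was the member not called. Without the block 14 of the 21 were called; leaving out the vehicle library of replicate 1, the ET-1 library of replicate 1, the vehicle library of replicate 2 and the ET-1 library of replicate 2 gave 19, 19, 8 and 16. In the fit of only the 4 libraries compared none was called.

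The response of mitosis genes to ET-1 was more negative under JQ1 than without it in 21 of 21 members, by a median of −0.78. Unadjusted p-values for that difference were under 0.05 in all 21, against 10.3% of all genes tested in either direction and 6.13% with a negative difference, but the lowest adjusted p in the list was 0.0866. The genes called for a difference between responses numbered 5 of 13793, or 0.0363%, and the 3 with a negative difference were Cdca8, Fbxo5 and Ube2t. Cdca8, borealin of the chromosomal passenger complex (rn6 chr5:142911305-142933526), had 7.76 and 8.78 FPKM with ET-1 under JQ1, against 13.3 and 14.3 FPKM with vehicle under JQ1. Without JQ1 it had 29.2 and 30.2 FPKM with ET-1 and 23.8 and 25.8 FPKM with vehicle. It fell by 0.71 ± 0.06 under JQ1 and rose by 0.26 ± 0.06 without it, a difference between responses of −0.97 ± 0.08 (adjusted p = 0.026). Fbxo5, the inhibitor of the anaphase-promoting complex, had 4.34 and 3.89 FPKM with ET-1 under JQ1 and 7.69 and 7.70 FPKM with vehicle under JQ1, and its responses differed by −0.93 ± 0.10 (adjusted p = 0.0381). Ube2t, a ubiquitin-conjugating enzyme of DNA crosslink repair, had 6.05 and 6.18 FPKM with ET-1 under JQ1 and 11.97 and 12 FPKM with vehicle under JQ1, and its responses differed by −0.90 ± 0.09 (adjusted p = 0.0381). Neither Cdca8, Fbxo5 nor Ube2t was called for the difference in any of the 8 fits that left out a library of the 2 comparisons (adjusted p between 0.0586 and 0.219). No gene was called for it in the fit of only those 8 libraries, nor without the block, when 616 genes had an unadjusted p under 0.05, against 1415 with it. When transcripts under 400 nt were left out of the sums, 34 genes (0.272%) were called, 24 of them negative, including the mitosis list's Ccnb1 (adjusted p = 0.04005), Anln (0.0478) and Prc1 (0.04998).

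**Figure D4:**
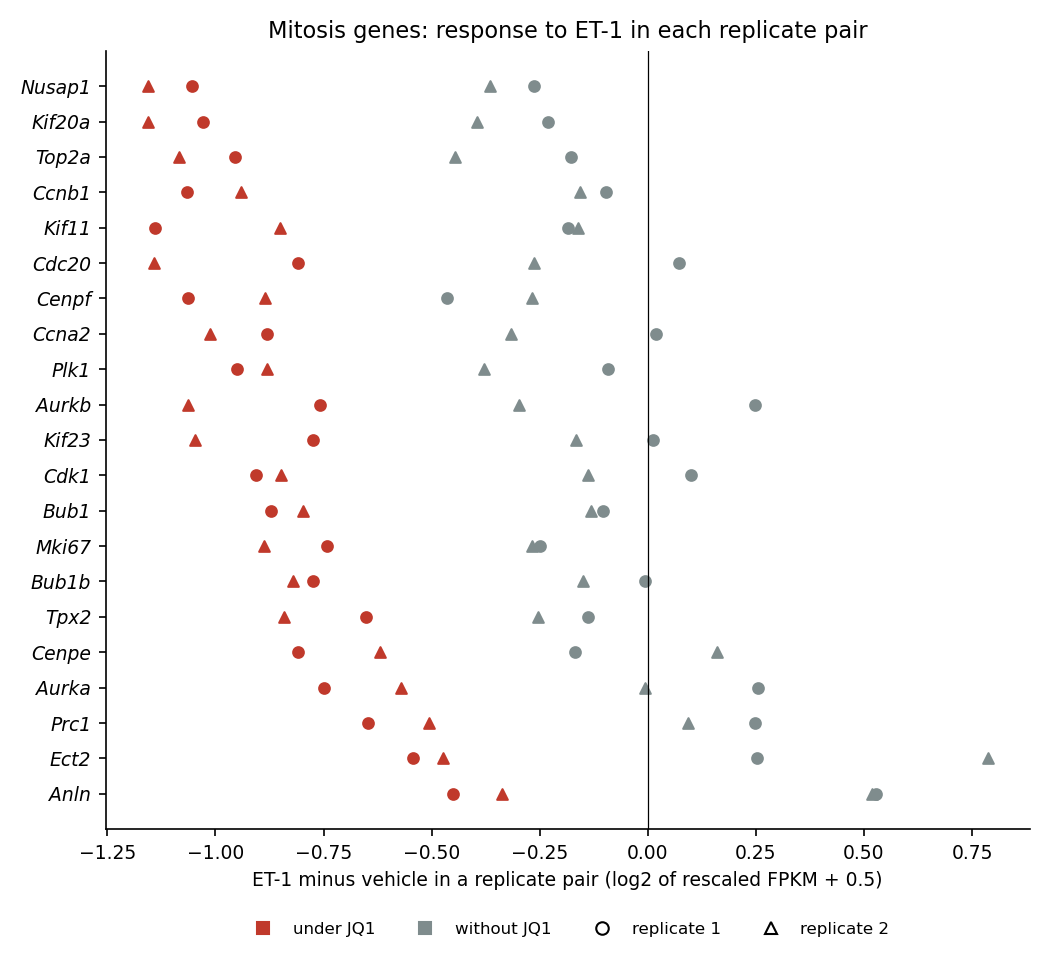
Difference between ET-1 and vehicle in each replicate pair for the 21 mitosis genes, in log2(FPKM + 0.5), ordered by the difference under JQ1; red is under JQ1, grey is without JQ1, circles are replicate 1 and triangles are replicate 2. All red symbols lie below 0, and in each gene both lie left of both grey symbols.

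Of the genes called in both settings, 7 were lower with ET-1 under JQ1 and higher with ET-1 without JQ1, and none was called the other way round. Besides Cdca8 these were Anln, the cytokinesis scaffold anillin, Cdc25c, the phosphatase that activates the mitotic kinase, Spdl1, a spindle adaptor of dynein, Adk, adenosine kinase, Nxnl2, a thioredoxin-like protein, and a locus with a placeholder name; they were named after their values were seen. Anln had 7.56 and 8.50 FPKM with ET-1 under JQ1, against 10.52 and 10.9 FPKM with vehicle under JQ1, and 17.2 and 19.3 FPKM with ET-1 and 11.8 and 13.3 FPKM with vehicle without JQ1. Its differences were −0.39 ± 0.10 and 0.52 ± 0.10. Except for Cdca8, none of the 7 was called for the difference between responses (adjusted p between 0.0866 and 0.122) or under JQ1 without the block. Cdca8 was also the single member of the 7 still called under JQ1 in all 4 fits that left out a library of that comparison; the other 6 were called in none of them (adjusted p of Anln between 0.11 and 0.191). PE under JQ1 was compared with the same vehicle libraries: 13 of the 21 mitosis genes were lower with PE under JQ1, against 5.89% of all genes, with a median of −0.41, and Ccnb1 showed −0.27 (adjusted p = 0.0671) with PE.

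Fibroblast and macrophage marker sums were below vehicle with ET-1 in both pairs under JQ1, as given above, and also without JQ1, where the fibroblast sum was 1367 and 548 FPKM with ET-1 and 1860 and 710.3 FPKM with vehicle. Their part in the fall of the mitosis genes was not tested. The promoters of Nusap1 and Top2a are printed because these were the members with the largest falls whose windows held both a CCAAT box and a cell cycle homology region (CHR, TTTGAA), elements known from promoters of genes expressed in late cell cycle. Matches on either strand are in capitals in either orientation; the windows run from 250 bases before to 50 bases after the RefSeq start (GRCr8), Nusap1 at chr3:127057045-127057344 (plus strand) and Top2a at chr10:84473044-84473343 (minus strand).
Nusap1: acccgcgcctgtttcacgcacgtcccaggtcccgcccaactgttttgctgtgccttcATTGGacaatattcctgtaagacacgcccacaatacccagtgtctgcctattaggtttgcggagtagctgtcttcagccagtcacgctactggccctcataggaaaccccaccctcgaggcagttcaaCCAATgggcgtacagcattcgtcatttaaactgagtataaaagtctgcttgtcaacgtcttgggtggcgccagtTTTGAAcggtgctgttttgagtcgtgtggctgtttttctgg
Top2a: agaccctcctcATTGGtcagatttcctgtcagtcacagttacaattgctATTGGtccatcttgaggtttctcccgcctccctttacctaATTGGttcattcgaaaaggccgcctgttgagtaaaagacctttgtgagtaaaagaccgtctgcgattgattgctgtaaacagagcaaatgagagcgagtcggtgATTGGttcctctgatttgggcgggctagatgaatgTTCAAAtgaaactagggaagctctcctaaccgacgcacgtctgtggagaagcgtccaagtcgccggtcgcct
Both elements occurred in 10 of the 18 mitosis promoters held (55.6%) and in 412 of 8824 promoters of all genes tested (4.67%). The CHR letters alone occurred in 140 of 634 promoters of genes lowered under JQ1 (22.1%), in 42 of 468 of genes raised under JQ1 (8.97%) and in 11.3% of all promoters. These are counts of letters and do not show which factors bound.

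Of 24 sterol synthesis genes tested, 1 was higher under JQ1 (4.17%, near the 4.92% of all genes). Without JQ1 12 were higher, against 8.89% of all genes. None was lower in either setting, and the medians were 0.34 under JQ1 and 0.81 without it. Mvd, mevalonate diphosphate decarboxylase (rn6 chr19:55258905-55268951), had 17.5 and 15.1 FPKM with ET-1 under JQ1, against 13.4 and 12.4 FPKM with vehicle under JQ1, and 30.9 and 25.9 FPKM with ET-1 and 15.1 and 13.6 FPKM with vehicle without JQ1. It was raised by 0.32 ± 0.06 under JQ1 and by 0.96 ± 0.06 without it. That call under JQ1 was not made without the block or in any fit that left out a library of the comparison. Idi1 and Fdps, 2 enzymes of isoprenoid synthesis, stood at 0.60 and 0.51 under JQ1, not called, and rose by 1.39 and 1.53 without it. The difference between responses was negative in 24 of 24 members, with an unadjusted p under 0.05 in 8; the lowest adjusted p was 0.0866, and so no member passed the test. With transcripts under 400 nt left out, Mvd was called for it at −0.64 (adjusted p = 0.0478).

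Genes of the integrated stress response and serine synthesis had a higher median under JQ1 and no call in the blocked fit of all 12 libraries. The median of 18 tested was 0.69 under JQ1 and 0.02 without it, and 17 of 18 were above vehicle under JQ1. The median was 0.20 in replicate pair 1 and 1.07 in pair 2. No member was called in that fit (lowest limma adjusted p 0.0522) or without the block. With the values as deposited 1 member was called, and 1 when at least 1 FPKM was required in at least 8 libraries. More were called without the ET-1 library of replicate 1, a fit that left 1 library in that group. Asns, asparagine synthetase, showed 1.47 and Chac1, a glutathione-degrading enzyme, 1.40 under JQ1. The ET-1 library of replicate 2 under JQ1 also had the highest share of bases in transcripts under 400 nt, at 16.96% against 8.56% in the lowest library. With such transcripts left out of the sums 3 members of the list were called. The part of that share in the result was not tested otherwise. Ribosome biogenesis genes were above vehicle in 30 of 30 under JQ1, with a median of 0.32 under JQ1 and 0.25 without it. Of them 3 were called higher, led by Rrs1, a ribosome assembly factor, at 0.54 ± 0.14. That is 10.0% called, near the 11.6% of all genes. None was called without the block, without either replicate 2 library or without the vehicle library of replicate 1, and 5 without the ET-1 library of replicate 1. Their pair medians were 0.13 and 0.54. Among 13 mitochondrially encoded genes, 1 was called lower under JQ1 (Mt-nd2, −0.34 ± 0.09), 7.69% of the list and near the 6.68% of all genes. Without JQ1 8 were lower, against 9.5% of all genes. The medians were −0.22 under JQ1 and −0.36 without it. None was called under JQ1 without the block, and the Mt-nd2 call needed every library of the comparison.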

How the data were processed

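RNA from 12 cultures was sequenced as rRNA-depleted stranded libraries, per the labels' protocols. The submitters' processing notes name StringTie 1.3.4d, the aligner STAR 2.7.1a, the trimmer Trim Galore 0.6.0, DESeq2 1.24.0 and the builds rn6 and Rnor_6.0, without their settings. The authors deposited FPKM per transcript, per the file headers, in tables that carry no read counts, so no count test was run. The same deposited tables hold per-base coverage, a signal used only for depth (coverage times length).

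FPKM was summed by gene over the 41078 transcripts (32883 genes) and rescaled per library by the median of ratios (factors 0.873 to 1.13). The 13793 genes with at least 1 FPKM in at least 2 libraries were tested with limma 3.58.1 (R 4.3.3; trended, robust) on log2(FPKM + 0.5), which understates changes of low genes. The fit held 6 group means and the replicate number as a block over all 12 libraries, and Benjamini-Hochberg adjustment ran over all genes. The fit was tested on simulated data.

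Libraries were paired by replicate number, as the comparison was defined. The numbers pair the libraries in the data too: deviations from group means of same-numbered libraries correlated between 0.155 and 0.672 over 15 pairs of groups. The labels do not say whether a number marks a shared culture.

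Named genes were the 15 largest called rises and falls with the same sign in both pairs, the 8 largest in each direction called in both settings, up to 8 in each direction called for a difference between responses, 16 set genes, and up to 4 called members per list; other list members are named to account for counts. The ranked genes leave out placeholder names, ribosomal and histone genes and small RNAs. Lists were matched by symbol. The comparison, members and lists were chosen with earlier results of these data known. Of 131 named genes, 11 overlap another gene at 1 FPKM or more (among those in the text Smim5, Gpr22, Myh6, Myh7, Ednrb, Cdk9, Tnni3, Bcl2l1, Kif20a, Irf7 and Col3a1), and the labels do not say how shared reads were assigned. Promoters were read from RefSeq windows on GRCr8 for 8824 genes. Alternatives covered the block, the libraries fitted, the pseudocount, the filter, the rescaling, short transcripts, variance moderation and each library left out.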

Additional observations from a re-analysis of the deposited data

Results flagged for a closer look

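The response to ET-1 differed with and without JQ1, by the test of the difference itself, in 5 genes. The response under JQ1 minus the response without it was 3.20 for Myh3, 2.005 for Sct, −0.97 for Cdca8, −0.93 for Fbxo5 and −0.90 for Ube2t on the log2 scale (adjusted p between 0.0135 and 0.0381). The size of the Myh3 difference depends on the value added before the log: it was 4.51 with 0.1 added and 2.50 with 1 added. The 5 calls rested on the whole set of libraries. None of the 5 was called with no replicate block or with only the 8 libraries of both comparisons. Myh3 was called in 3 of the 8 fits that left out a library (adjusted p between 0.00366 and 0.111), and the other 4 genes in none of them (adjusted p between 0.0586 and 0.219). Sct, the secretin gene, was listed at 0 in all 4 libraries under JQ1 and in both ET-1 libraries without JQ1, and stood at 1.39 and 1.63 FPKM in the vehicle libraries without JQ1. Its difference therefore rests on those 2 libraries, near the lower limit of the genes tested, and it has no response to ET-1 under JQ1 to report.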

How the results depend on the processing

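No gene called here was called in the opposite direction, and no named gene with a call changed sign, under any alternative run. The counts moved most with the pairing and the libraries kept. With no replicate block, 44 genes were higher and 143 lower under JQ1, 65 were called the same way in both settings, 22 list members were called (151 with the block), 0 genes were called for the difference, and genes called without JQ1 had medians of 0.43 and −0.44 under JQ1. With only the 4 libraries compared and the replicate block, 12 genes were higher and 3 lower under JQ1 and 3 list members were called. In a blocked fit of the 8 libraries of both comparisons, 299 genes were called the same way in both settings, 0 for the difference, and the median of the genes raised without JQ1 was 0.41. Without a filter on low values the counts were 390, 470, 96 list members, 485 in both settings and 13 for the difference. Values as deposited gave 1461 lower genes and 3 for the difference; leaving out transcripts under 400 nt gave 34 for the difference, and no trend and no robust moderation gave 8. Leaving out each library in turn gave 57 to 834 higher, 53 to 1030 lower, 26 to 165 list members, 72 to 976 in both settings and 0 to 3 for the difference, with medians of 0.28 to 0.45 and −0.43 to −0.26; a group left with 1 library is assumed to vary like the others. The cause of these shifts was not tested. Of 131 named genes, 100 lost their call without the block, 90 without the vehicle library of replicate 2 and 86 without the ET-1 library of replicate 2, and pseudocounts of 0.1 and 1 lost 0 and 4. The deposited values carry no read counts, so the counting error of low genes is unknown.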
